A study of Mus musculus with 12 samples.

Results

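Oxidative phosphorylation genes encode the respiratory chain and the ATP synthase of mitochondria, and they are described here in sorted auditory neurons of mouse embryos with and without floxed Isl1. Members were the rows of the deposited count table whose identifier maps to a protein-coding mouse symbol that starts with mt- or belongs to the Nduf, Sdh, Uqcr, Cox4 to Cox8 and Atp5 families. The rule found 98 genes among 25674 identifiers, of which 8 are encoded in mitochondrial DNA and 90 in the nucleus. The rule goes by gene symbol and uses no measured value. Of the nuclear members 36 belong to complex I, 4 to complex II, 8 to complex III, 17 to complex IV and 17 to complex V, and 8 are Ndufaf genes, most of which encode assembly factors of complex I. Ndufa4 and Ndufa4l2 were placed with complex IV, where the NDUFA4 protein is found. The mitochondrial members were mt-Nd1, mt-Nd2, mt-Nd3, mt-Nd4, mt-Nd5, mt-Nd6, mt-Cytb and mt-Co1, and the other protein-coding genes of mitochondrial DNA were not analysed here.

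RNA was measured in spiral ganglion neurons, which carry signals from the cochlear hair cells to the brain, in embryos at stage E14.5. Every sample held 100 cells sorted for the red reporter tdTomato, pooled from both ears of a single embryo. The 6 control embryos were Neurod1Cre;Rosa26tdTOM, and the 6 ISL1CKO embryos were Neurod1Cre;Isl1loxP/loxP;Rosa26tdTOM. Both groups therefore carried the Cre transgene, a Neurod1-cre BAC construct, and the Cre-dependent reporter, on a mixed C57BL/6/sv129 background and with embryos of either sex. The sample numbers carry the tag technical replicate, while the design text speaks of biological replicates. They were treated as separate embryos, and the p-values measure only the spread between these samples.

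The respiratory chain passes electrons from NADH and succinate through complexes I and II to ubiquinone, then through complex III and cytochrome c to complex IV, where oxygen is reduced. Complexes I, III and IV pump protons across the inner mitochondrial membrane, and complex V, the ATP synthase, uses the return flow to make ATP. Mitochondrial DNA encodes core membrane subunits of complexes I, III, IV and V, is copied and transcribed inside the organelle, and is present in many copies per cell, whereas all of complex II and most other subunits come from nuclear genes. Neurons draw much of their ATP from this pathway.

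The libraries held 11895603 to 13857480 counts. Isl1 itself did not separate the groups at the level of whole-gene counts, with 1171, 1572 and 1777 CPM (lowest, median and highest) in controls and 1050, 1424 and 1589 CPM in ISL1CKO libraries, so the genotypes rest on the labels. CPM are counts scaled to a common library size, here after TMM scaling, a correction for library composition. The summed level of 10 neuron markers was 13850 to 15610 CPM in controls and 9813 to 12990 CPM in ISL1CKO libraries, without overlap. Of those markers, 4 fell, Gata3, Nefl, Nefm and Mapt, and 1, Neurod1, rose. Tubb3 (log2 fold change, ISL1CKO against control, 0.30), Snap25 (0.02), Elavl3 (0.02), Isl1 (-0.15) and Prox1 (-0.88) did not pass the threshold given below. Macrophage markers summed to 2.07 to 394 CPM in controls and 1.46 to 749 CPM in ISL1CKO libraries, Schwann cell markers to 9.47 to 158 CPM and 16.4 to 225 CPM, and muscle markers to 24.0 to 93.3 CPM and 71.9 to 268 CPM. Of 4 muscle markers tested 2 rose, Actc1 and Myh3. Mesenchyme markers summed to 38.1 to 84.2 CPM and 69.9 to 120 CPM, and 2 of 4 tested rose, Col3a1 and Tbx18. Hair cell markers summed to 253 to 538 CPM and 293 to 580.0 CPM, and 1 of 4 tested fell, Ccer2. Of 7 erythrocyte markers 1 was in the table analysed here, at most at 5.87 CPM. The part of these cells in the differences below was not tested. ISL1CKO libraries 2, 3 and 5 held both Xist, at 62.9 to 132 CPM, and Y-linked transcripts, at a mean of 35.7 to 87.3 CPM, although each is labelled as a single embryo. Control library 3 stood apart in the mitochondrial members, so the values are given with and without it.

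Promoter stretches of nuclear members are shown first because the nuclear subunits are scattered over the genome and have been studied for shared promoter elements. Cox5a is printed because it had the largest fall of all members, and Atp5g3 and Cox6a1 as members that fell and hold a motif match in a stretch outside annotated exons. Each stretch is 100 bases from RefSeq promoter windows (GRCm38.p6), 5′ to 3′ on the gene's strand, with matches to a searched motif in capitals.
Cox5a, chr9:57521132-57521231, plus strand: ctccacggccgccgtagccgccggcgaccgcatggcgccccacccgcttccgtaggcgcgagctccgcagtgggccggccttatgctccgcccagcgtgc
Atp5g3, chr2:73911327-73911426, minus strand: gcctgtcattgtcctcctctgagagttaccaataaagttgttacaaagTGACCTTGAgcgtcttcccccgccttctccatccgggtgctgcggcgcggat
Cox6a1, chr5:115348995-115349094, minus strand: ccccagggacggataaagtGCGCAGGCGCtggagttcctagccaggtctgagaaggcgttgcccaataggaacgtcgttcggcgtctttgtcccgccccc
The Cox5a stretch held none of the 4 motifs searched. The capitals in Atp5g3, which start 52 bases before the annotated start, match TCAAGGTCA on the opposite strand, the element bound by estrogen-related receptors. The capitals in Cox6a1, 1 of 3 matches before its start, fit the core of the element bound by NRF1, a factor named for its part in transcribing respiratory genes.

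Of the 90 nuclear members, 73 had a window of 250 bases before to 50 bases after the start, and both strands were searched. The NRF1 core was in 19 of them (26.0%), against 11.7% of the tested genes with a window and 5.19% of all 27025 genes with a window. The YY1 core AAGATGGC was in 13.7% of the members, against 5.30% and 3.19%. The ETS core CCGGAAG, which GABP and other ETS factors bind, was in 24.7% of the members, against 20.2% and 9.93%. TCAAGGTCA was in 2 members (2.74%), against 0.35% and 0.47%. At least 1 of these motifs was present in 8 of the 14 members with a window that fell in ISL1CKO libraries and in 32 of the 57 that were tested and did not pass. Those shares, 57.1% and 56.1%, were close to each other. No motif contains another. A match is a stretch of letters, and binding was not measured.

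All 8 mitochondrial transcripts had lower fitted levels in ISL1CKO than in control libraries, and 2 of them, mt-Cytb and mt-Nd4, fell. Among the nuclear members 17 of 86 tested fell, 0 rose, and 77 had a fitted value below 0. The 17 were concentrated by count in complex V (10 of 17 tested) and complex IV (5 of 13), with 1 each in complexes I and III. Over all 14813 genes tested 10.2% passed the threshold, 5.19% as lower and 5.01% as higher. The test was the quasi-likelihood F-test of edgeR, and a gene passed when its p, adjusted by Benjamini-Hochberg over all genes tested, was under 0.05. The median log2 fold change, ISL1CKO against control, was -0.39 over the mitochondrial members and -0.24 over the nuclear members, while it was 0.0045 over all genes tested. CPM are relative to the rest of each library, and in bulk samples fewer cells of a type and less RNA per cell cannot be told apart.

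The mitochondrial members together took 0.881% ± 0.114 (SD, n = 6) of the counts in controls and 0.690% ± 0.0535 (SD, n = 6) in ISL1CKO libraries. The lowest, median and highest shares were 0.792%, 0.852% and 1.10% in controls and 0.621%, 0.694% and 0.759% in ISL1CKO libraries. Every ISL1CKO library lay below every control, and the mean was 21.7% lower. Without control 3 the control mean was 0.837% ± 0.0428 (SD) and the ISL1CKO mean was 17.6% below it. With mt-Cytb left out the shares overlapped, at 0.323% to 0.563% in controls and 0.253% to 0.334% in ISL1CKO libraries. The mean of that reduced share was 22.9% lower in ISL1CKO libraries, or 14.8% lower without control 3. The nuclear members took 1.79% ± 0.160 (SD, n = 6) of the counts in controls and 1.51% ± 0.102 (SD, n = 6) in ISL1CKO libraries. Their ranges, 1.58% to 2.02% and 1.42% to 1.67%, overlapped, and the mean was 16.0% lower, or 13.8% lower without control 3. The nuclear share divided by the mitochondrial share was 2.05 ± 0.199 (SD) in controls and 2.20 ± 0.262 (SD) in ISL1CKO libraries, a difference within the spread of the libraries. This ratio covers only the 8 mitochondrial members, without the other protein-coding genes of mitochondrial DNA. Some of the 8 share stretches with other transcripts, as given below. The ratio is therefore not the balance of all nuclear and mitochondrial RNA of the pathway.

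**Figure D1:**
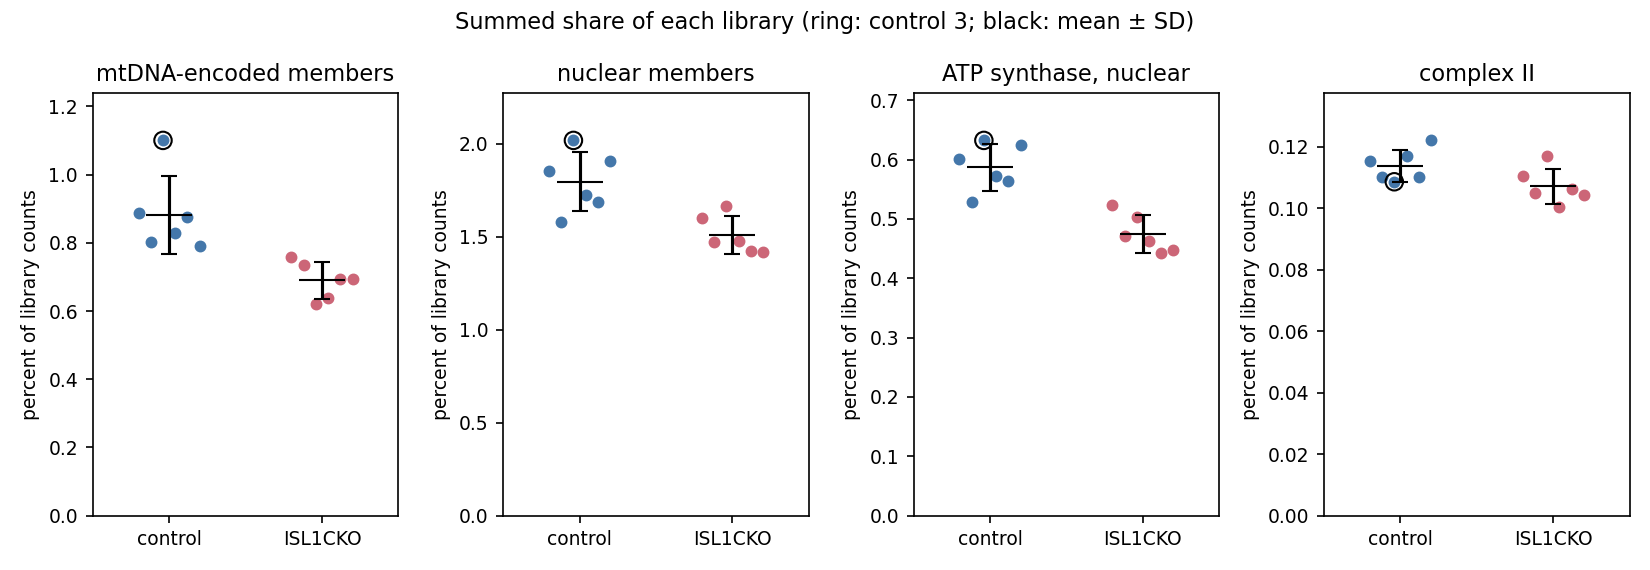
Share of each library's counts (percent, vertical axes from 0) in the mitochondrial members, the nuclear members, complex V and complex II, 1 point per library with mean ± SD in black and control 3 ringed. The 6 ISL1CKO points lie below all 6 control points for the mitochondrial members and for nuclear complex V, and control 3 is the highest mitochondrial point at 1.10%.

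mt-Cytb encodes cytochrome b, the core membrane subunit of complex III (chrM:14145-15288, plus strand). It had 4658, 4951 and 5331 CPM in controls and 3653, 4000 and 4213 CPM in ISL1CKO libraries, as lowest, median and highest. The groups did not overlap, and mt-Cytb fell by 0.33 on the log2 scale (SE 0.05, edgeR adjusted p = 0.000914). Groups that do not overlap and are lower in ISL1CKO were found for 3.65% of all genes tested and for 2 of the 8 mitochondrial members, and groups that do not overlap and are higher in ISL1CKO for 3.13% of all genes and for 0 of the 98 members. Per kilobase of exon mt-Cytb had the highest control level of all members, 4361 CPM per kb, and it made up 57.1% of the mitochondrial members' counts in controls and 57.3% in ISL1CKO libraries. Library preparation can weigh transcripts differently, so these levels describe counts and not molecules. The transcripts of mt-Cytb, mt-Nd1 and mt-Nd6 share 0% of their 75-base stretches with other annotated transcripts. Those of mt-Nd5, mt-Nd2, mt-Co1, mt-Nd4 and mt-Nd3 share 1.7%, 5.7%, 39.8%, 61.5% and 97.8%, so reads could be lost there. The part of this in the ranking was not tested.

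mt-Nd4 encodes a proton-pumping membrane subunit of complex I (chrM:10167-11544, plus strand). It had 464, 508 and 917 CPM in controls and 343, 404 and 441 CPM in ISL1CKO libraries. All ISL1CKO libraries lay below all controls, and the highest control value was that of control 3. mt-Nd4 fell by 0.51 on the log2 scale (SE 0.15, edgeR adjusted p = 0.0371), and by 0.33 without control 3 (adjusted p = 0.00626). It lost the call in 5 of the 12 fits that left out a library, those without ISL1CKO 1, 3, 4, 5 or 6 (adjusted p = 0.0523 to 0.0760), while mt-Cytb passed in all 12. Of the 75-base stretches of the mt-Nd4 transcript, 61.5% also occur in the annotated transcript of Gm28439, so reads could be split or dropped there. The mt-Cytb transcript shared 0 such stretches with other annotated transcripts.

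The other 4 genes of complex I with appreciable counts did not pass in the main fit. Of these, mt-Nd1 passed in 3 of the 12 fits that left out a library and in 2 of 9 other settings. mt-Nd1 (chrM:2751-3707) had 1188, 1394 and 1931 CPM in controls and 952, 1128 and 1330 CPM in ISL1CKO libraries, with a log2 fold change of -0.35 (SE 0.11, edgeR adjusted p = 0.0628). mt-Nd2 (chrM:3914-4951) had 252, 274 and 546 CPM against 222, 249 and 256 CPM, with a log2 fold change of -0.37 (SE 0.17, edgeR adjusted p = 0.194). The groups overlapped in both genes. mt-Nd5 (chrM:11742-13565) had 283, 326 and 593 CPM against 243, 269 and 328 CPM, and a log2 fold change of -0.40 (SE 0.16, edgeR adjusted p = 0.125). mt-Nd6, the gene on the opposite strand to the rest (chrM:13552-14070), had 83.2, 93.1 and 222 CPM against 64.6, 81.9 and 97.6 CPM, and a log2 fold change of -0.51 (SE 0.22, edgeR adjusted p = 0.172). Both had overlapping groups with control 3 on top, and the ends of mt-Nd5 and mt-Nd6 overlap by 14 bases on opposite strands. Whether the counting used strand is not given in the sources used here.

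mt-Nd3 (chrM:9459-9806) was the mitochondrial member with the fewest counts, at most 86 in a library. Its levels were 3.88, 5.55 and 6.67 CPM in controls and 2.86, 3.87 and 4.83 CPM in ISL1CKO libraries, with a log2 fold change of -0.51 (SE 0.29, edgeR adjusted p = 0.322). The groups overlapped, and 97.8% of its 75-base stretches also occur in Gm28438, so this level is uncertain. mt-Co1, the catalytic core of complex IV (chrM:5328-6872), had 863, 935 and 1372 CPM in controls and 719, 831 and 887 CPM in ISL1CKO libraries. The groups overlapped, the log2 fold change was -0.28 (SE 0.10, edgeR adjusted p = 0.108), and 39.8% of its stretches are shared with other annotated transcripts.

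**Figure D2:**
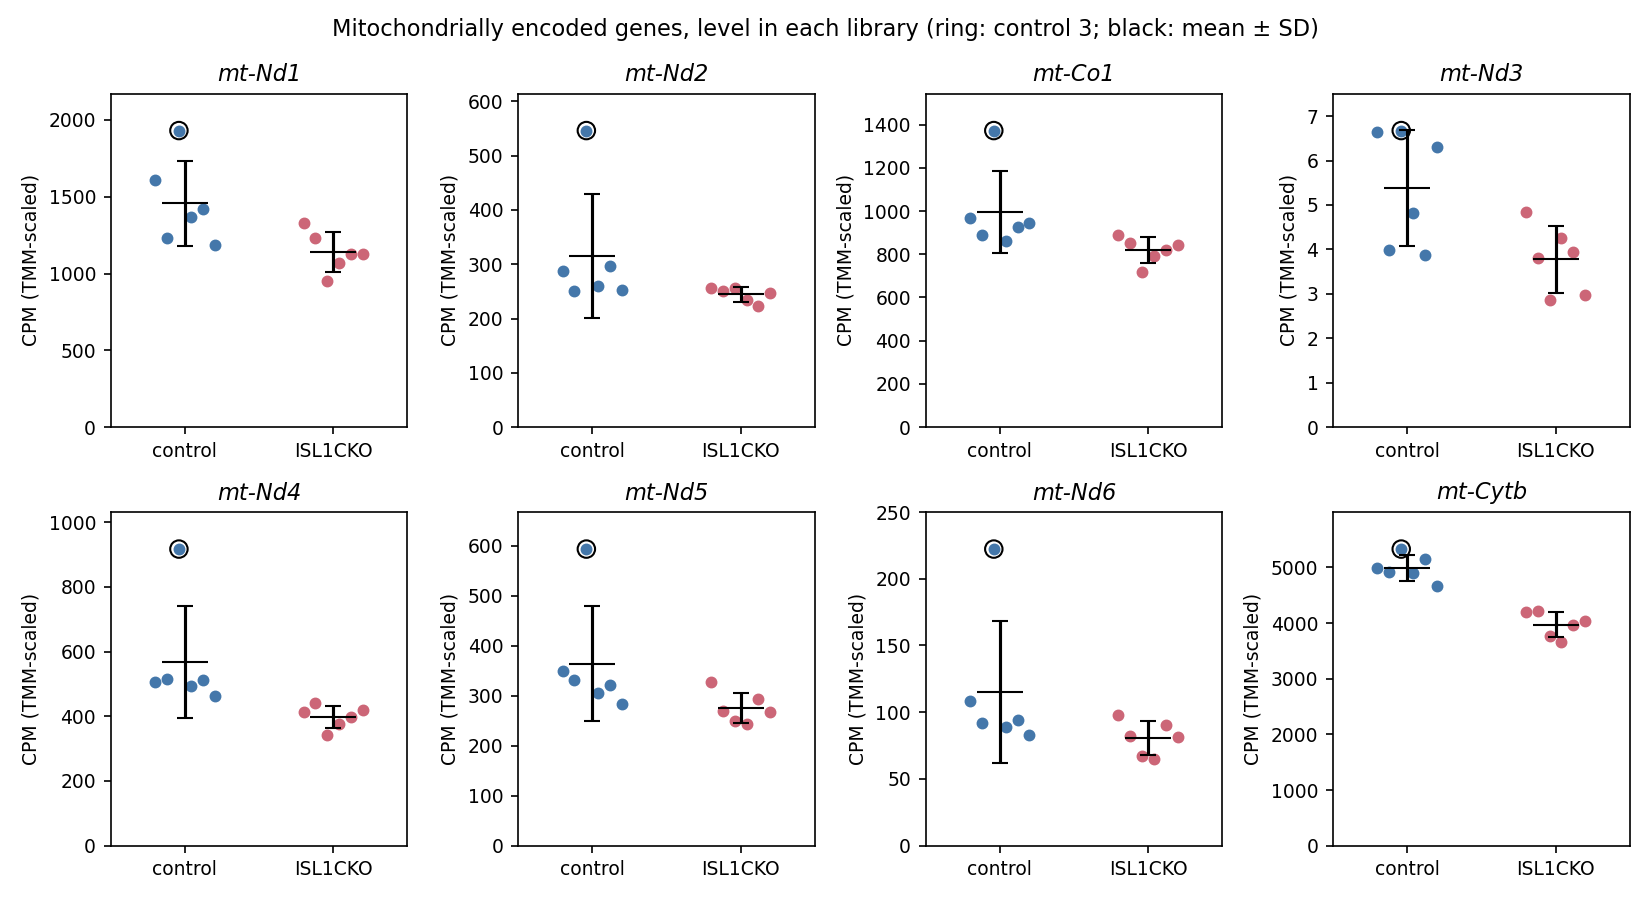
CPM in each library (vertical axes from 0) for the 8 mitochondrial members, 1 point per library, with mean ± SD in black and control 3 ringed. Only mt-Cytb and mt-Nd4 show no overlap, and control 3 is the highest point in all 8 panels.

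Control 3 exceeded the mean of the other 5 controls in all 8 mitochondrial members, by very different factors. The ratio was 2.38 for mt-Nd6, 2.03 for mt-Nd2, 1.86 for mt-Nd5 and 1.84 for mt-Nd4. It was 1.49 for mt-Co1, 1.42 for mt-Nd1, 1.30 for mt-Nd3 and 1.08 for mt-Cytb. The mitochondrial ribosomal RNAs mt-Rnr1 and mt-Rnr2 stood at 2.32 and 1.92 times the other controls in the same library. Among the nuclear members tested, 70 of 86 were higher in control 3 than in the other controls, at a median ratio of 1.22. Without control 3 the median log2 fold change was -0.24 over the mitochondrial members and -0.20 over the nuclear members. mt-Cytb (-0.32, edgeR adjusted p = 0.00103) and mt-Nd4 then passed and the other 6 did not. The largest moves were in mt-Nd6, to -0.22, in mt-Nd5, to -0.22, and in mt-Nd2, to -0.15. mt-Nd1 moved to -0.27, mt-Co1 to -0.17 and mt-Nd3 to -0.45.

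**Figure D3:**
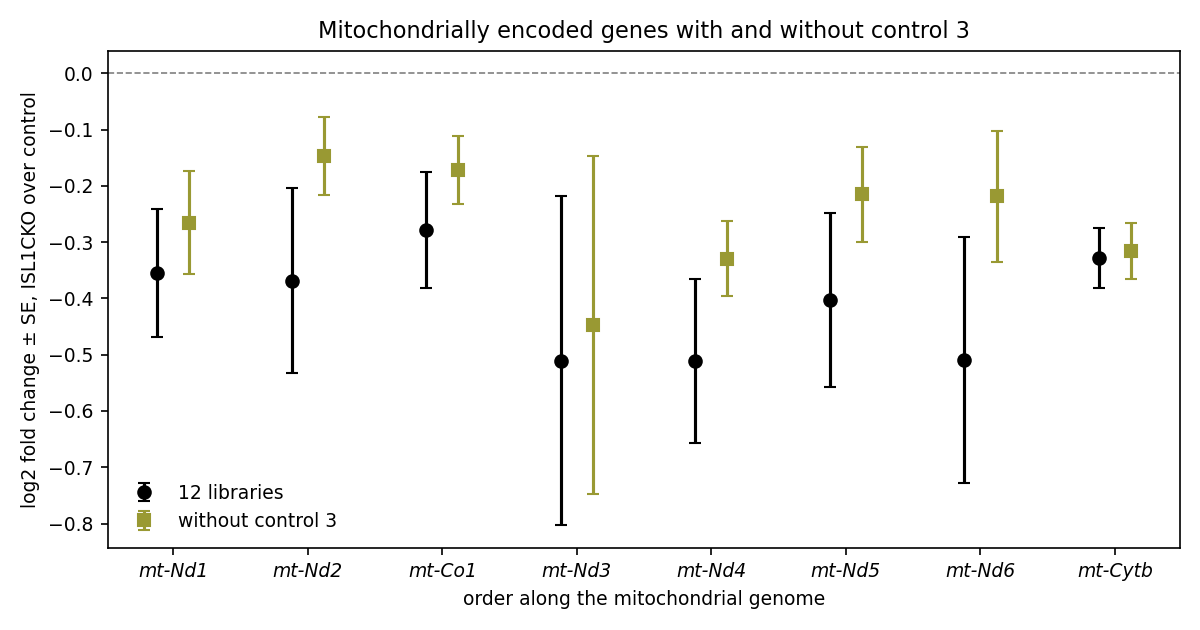
Log2 fold change, ISL1CKO against control, of the 8 mitochondrial members with all 12 libraries and without control 3, with standard errors as bars. All 8 values stay below 0 in both fits, and mt-Nd6 moves from -0.51 to -0.22.

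Complex I, the NADH dehydrogenase, had 36 nuclear members, all tested, of which 1 fell, beside 5.19% of all genes tested. Their median log2 fold change was -0.20, and 32 were below 0. At an unadjusted p under 0.05 there were 16 of the 36, all lower, beside 11.8% of all genes tested as lower. With a library left out 0 to 6 of the 36 were called, with DESeq2 6 and with the marker covariates described below 0. Ndufa12 (chr10:94198720-94221443), an accessory subunit, had 72.0, 110 and 147 CPM in controls and 67.2, 79.2 and 89.2 CPM in ISL1CKO libraries. The groups overlapped through the lowest control, and the gene fell by 0.49 on the log2 scale (SE 0.14, edgeR adjusted p = 0.0408). It lost the call in 10 of the 12 fits without a library, and 22.0% of its 75-base stretches also occur in Gm15920. Ndufb10, an accessory subunit of the membrane arm, had 183, 219 and 261 CPM against 157, 180 and 195 CPM. Its groups overlapped and its log2 fold change was -0.32 (SE 0.10, edgeR adjusted p = 0.0538). Ndufb10 passed in 3 of the 12 fits without a library and in 5 of 10 other settings.

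Ndufab1, the mitochondrial acyl carrier protein, was chosen after its values were seen because its groups did not overlap. It had 94.6, 101 and 119 CPM in controls and 74.6, 85.7 and 91.0 CPM in ISL1CKO libraries, and a log2 fold change of -0.27 (SE 0.09, edgeR adjusted p = 0.0607). Among the catalytic core subunits, also picked after their values were seen, Ndufv1, which binds NADH, had -0.05 (SE 0.10), and Ndufs1, an iron-sulfur subunit, had 0.05 (SE 0.12). Neither passed, with edgeR adjusted p = 0.817 and 0.850. Apart from these, Ndufv3 (0.12), Ndufa9 (0.09) and Ndufa6 (0.02) were the other complex I genes with a fitted value above 0, and none passed.

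The 8 Ndufaf genes had a median log2 fold change of -0.11, with 5 below 0, and none fell or rose in the edgeR test. At an unadjusted p under 0.05 there was 1 of 8, as higher, where 11.6% of all genes tested were higher and 11.8% lower at that level. It was Ndufaf7, a methyltransferase needed for complex I assembly. Ndufaf7 had 50.7, 54.0 and 61.6 CPM in controls and 54.4, 69.7 and 92.7 CPM in ISL1CKO libraries. The ISL1CKO values lay mostly above the controls but overlapped them, and the log2 fold change was 0.36 (SE 0.12, edgeR adjusted p = 0.0796). DESeq2 called it higher (adjusted p = 0.0459), as did edgeR without ISL1CKO 6 (adjusted p = 0.0395). With ISL1CKO 2, 3 and 5 left out together its value dropped to 0.15 on the log2 scale (edgeR adjusted p = 0.62). Ndufaf5, which modifies a core subunit, had 31.1, 37.4 and 51.0 CPM against 26.8, 33.3 and 36.6 CPM and a log2 fold change of -0.28 (SE 0.14, edgeR adjusted p = 0.257), with overlapping groups.

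Complex II, succinate dehydrogenase, is the complex with no mitochondrially encoded subunit, and none of its 4 genes passed. At an unadjusted p under 0.05 there was 1 of 4, Sdhd, as lower, beside 11.8% of all genes tested. Sdhd, a membrane anchor, had 168, 227 and 237 CPM in controls and 168, 186 and 227 CPM in ISL1CKO libraries. Its lowest control was control 3, the groups overlapped, and the log2 fold change was -0.21 (SE 0.10, edgeR adjusted p = 0.211). It passed in 1 of the 12 fits without a library, the fit without control 3. Sdhb, the iron-sulfur subunit, had 424, 450 and 491 CPM against 382, 409 and 506 CPM and a log2 fold change of -0.09 (SE 0.07, edgeR adjusted p = 0.498). Sdhc had -0.09 and Sdha, the catalytic subunit, 0.05. The complex took 0.114% ± 0.00518 (SD) of the counts in controls and 0.107% ± 0.00568 (SD) in ISL1CKO libraries, 5.82% lower, with overlapping groups.

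Complex III, the cytochrome bc1 complex, had 8 nuclear members, all with fitted values below 0, at a median of -0.24. Uqcrfs1, the Rieske iron-sulfur protein (chr13:30540308-30545362), had 340, 368 and 397 CPM in controls and 284, 306 and 356 CPM in ISL1CKO libraries. The groups overlapped, and it fell by 0.24 on the log2 scale (SE 0.07, edgeR adjusted p = 0.0465), a call present in 2 of the 12 fits without a library. Uqcrh, the hinge protein, had 212, 241 and 290 CPM against 187, 196 and 227 CPM, and a log2 fold change of -0.28 (SE 0.09, edgeR adjusted p = 0.0524). Its groups overlapped as well, and it passed in 3 of the 12 fits without a library and in 5 of 10 other settings. Uqcrc1, a core protein, had 483, 524 and 610 CPM against 454, 465 and 582 CPM, with a log2 fold change of -0.13 (SE 0.08, edgeR adjusted p = 0.342).

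Complex IV, cytochrome c oxidase, had 13 of its 17 nuclear members tested, and all 13 fitted values were below 0, at a median of -0.30. The share of counts in the complex was 0.342% ± 0.0504 (SD) in controls and 0.264% ± 0.0211 (SD) in ISL1CKO libraries, 22.7% lower with overlapping groups. Control 3 had the highest share, 0.424%. Without it the share was 18.9% lower in ISL1CKO libraries, and the median log2 fold change was -0.23. In the main fit 5 of the 13 fell, beside 5.19% of all genes tested. Of the complex IV genes 4 to 6 were called with a library left out. With the marker covariates described below 2 were called, and without ISL1CKO 2, 3 and 5 together 1. Over all genes tested those 2 fits called 913 of 14813 and 767 of 16222. Cox5a encodes an early-assembling subunit that binds next to the catalytic core (chr9:57521274-57532426). It had 196, 269 and 312 CPM in controls and 123, 151 and 178 CPM in ISL1CKO libraries. The groups did not overlap, and Cox5a fell by 0.77 on the log2 scale (SE 0.13, edgeR adjusted p = 0.00102), the largest fall among the members. A bidirectional noncoding gene, Gm26631, overlaps it on the opposite strand and shares 21.7% of its 75-base stretches.

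Cox4i1, the partner of Cox5a in the first steps of assembly (chr8:120668222-120674207), had 506, 558 and 662 CPM in controls and 411, 444 and 479 CPM in ISL1CKO libraries. The groups did not overlap, and it fell by 0.35 on the log2 scale (SE 0.07, edgeR adjusted p = 0.00465). Cox6a1, the subunit of tissues other than heart and muscle (chr5:115345642-115348981), had 328, 398 and 569 CPM against 261, 303 and 322 CPM, again without overlap. It fell by 0.48 (SE 0.12, edgeR adjusted p = 0.0172). Cox8a, the widely expressed form of a small subunit (chr19:7215153-7217616), had 161, 207 and 237 CPM against 128, 148 and 162 CPM. Its lowest control lay just under the highest ISL1CKO library, and it fell by 0.47 (SE 0.11, edgeR adjusted p = 0.0112). Ndufa4 (chr6:11900292-11907497) had 356, 394 and 530 CPM against 291, 314 and 382 CPM. It overlapped between the groups and fell by 0.35 (SE 0.10, edgeR adjusted p = 0.0390), a call present in 5 of the 12 fits without a library and lost without control 3 (adjusted p = 0.0631).

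Several subunits of complex IV have tissue-specific forms, and the neurons held mainly the general ones. In controls Cox4i1 had 365 CPM per kb of exon and Cox4i2, the form of lung and hypoxic cells, 0.517 CPM per kb. Cox6b1 had 599 CPM per kb and Cox6b2, the form of testis, 0.323 CPM per kb. Cox4i2, Cox6b2, Cox7b2 and Ndufa4l2 reached at most 16, 20, 9 and 6 counts in any library and were not tested. Cox7a2 had 293 CPM per kb, Cox7a2l, a factor of supercomplexes of complexes III and IV, 93.0 CPM per kb, and Cox7a1, the heart and muscle form, 2.87 CPM per kb. The levels of Cox7a1 were 0.512, 1.76 and 2.08 CPM in controls and 1.07, 1.23 and 1.79 CPM in ISL1CKO libraries, with overlapping groups. Its log2 fold change was -0.22 (SE 0.42, edgeR adjusted p = 0.805), and Cox7a2 had -0.25 (SE 0.09, edgeR adjusted p = 0.107).

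Complex V, the ATP synthase, had 17 members, all tested, of which 10 fell, beside 5.19% of all genes tested. Of the 17, 16 had a fitted value below 0, at a median of -0.31. The complex took 0.587% ± 0.0399 (SD, n = 6) of the counts in controls, from 0.528% to 0.632%, and 0.475% ± 0.0321 (SD, n = 6) in ISL1CKO libraries, from 0.443% to 0.523%. All ISL1CKO libraries lay below all controls, with a mean 19.0% lower, or 17.8% lower without control 3. Of its genes 7 to 11 were called with a library left out, 4 with the marker covariates and 4 without ISL1CKO 2, 3 and 5 together. Those last 2 fits called 913 of 14813 and 767 of 16222 of all genes tested. Of the 86 nuclear members tested, 9 had groups that did not overlap, all lower, beside 3.65% of all genes tested. Of the 9, 5 belong to this complex, 3 to complex IV and 1 to complex I.

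The catalytic F1 head of the synthase is built of alpha and beta subunits around a gamma stalk. Atp5b, the catalytic beta subunit (chr10:128083273-128090391), had 1334, 1468 and 1624 CPM in controls and 1166, 1204 and 1387 CPM in ISL1CKO libraries. A single ISL1CKO library lay within the control range, and Atp5b fell by 0.25 on the log2 scale (SE 0.06, edgeR adjusted p = 0.0161). Atp5a1, the alpha subunit (chr18:77773729-77782869), had 861, 894 and 950 CPM against 717, 764 and 830 CPM, without overlap. It fell by 0.24 (SE 0.05, edgeR adjusted p = 0.0104). Atp5c1, the gamma subunit (chr2:10056016-10080510), had 509, 556 and 581 CPM against 361, 426 and 502 CPM. Again the groups did not overlap, and it fell by 0.35 (SE 0.08, edgeR adjusted p = 0.00730).

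The c subunit, which forms the rotating ring in the membrane, is made as 1 mature protein from 3 genes. Atp5g3 (chr2:73908447-73911326) had 422, 464 and 597 CPM in controls and 304, 329 and 369 CPM in ISL1CKO libraries. The groups did not overlap, and it fell by 0.52 on the log2 scale (SE 0.09, edgeR adjusted p = 0.00118). Atp5g1 (chr11:96068852-96075670) had 118, 145 and 174 CPM against 90.0, 103 and 124 CPM. The ISL1CKO library with the highest value overlapped the controls, and the gene fell by 0.49 (SE 0.11, edgeR adjusted p = 0.00932). Atp5g2 had 10.6, 11.9 and 17.6 CPM against 9.50, 11.9 and 13.6 CPM and did not pass, with a log2 fold change of -0.16 (SE 0.20, edgeR adjusted p = 0.691). A share of 35.8% of its 75-base stretches occurs in other annotated transcripts, so its level is uncertain.

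The stator and membrane part that holds the head in place includes Atp5j, Atp5h, Atp5o and Atp5j2. Atp5j, coupling factor 6 (chr16:84827866-84835625), had 379, 434 and 524 CPM in controls and 300, 331 and 347 CPM in ISL1CKO libraries. The groups did not overlap, and it fell by 0.42 on the log2 scale (SE 0.08, edgeR adjusted p = 0.00220). The gene overlaps Gabpa on the opposite strand by 701 bases. Atp5mpl, a small subunit of the membrane part (chr12:111961375-111966977), had 136, 154 and 195 CPM against 101, 122 and 136 CPM. The highest ISL1CKO library lay just under the lowest control, and the gene fell by 0.41 (SE 0.10, edgeR adjusted p = 0.0156).

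Atp5h, subunit d of the stator (chr11:115415689-115419962), fell by 0.35 on the log2 scale (SE 0.10, edgeR adjusted p = 0.0373). Its levels were 252, 300 and 386 CPM in controls and 203, 243 and 269 CPM in ISL1CKO libraries. Atp5o, the subunit that confers oligomycin sensitivity (chr16:91925214-91931687), had 190, 220 and 284 CPM against 150, 176 and 216 CPM and fell by 0.36 (SE 0.11, edgeR adjusted p = 0.0423). Atp5j2, subunit f (chr5:145183698-145192062), had 192, 221 and 286 CPM against 156, 178 and 201 CPM and fell by 0.35 (SE 0.10, edgeR adjusted p = 0.0474). The groups overlapped in all 3, and their calls were present in 4, 2 and 3 of the 12 fits without a library. For Atp5o and Atp5h, 37.2% and 27.1% of the 75-base stretches are shared with other annotated transcripts.

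The 7 genes of the complex that did not pass were Atp5d, Atp5k, Atp5f1, Atp5e, Atp5g2, Atp5l and Atp5s. Atp5s, an ATP synthase-related factor, was the only one of the 17 with a fitted value above 0, and it was chosen for that after its values were seen. It had 10.4, 16.1 and 23.2 CPM in controls and 16.1, 24.0 and 34.8 CPM in ISL1CKO libraries, a log2 fold change of 0.55 (SE 0.23, edgeR adjusted p = 0.161) with overlapping groups. Atp5l shared 76.0% of its 75-base stretches with other annotated transcripts, and its 5.27 to 14.8 CPM in controls are uncertain for that reason.

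**Figure D4:**
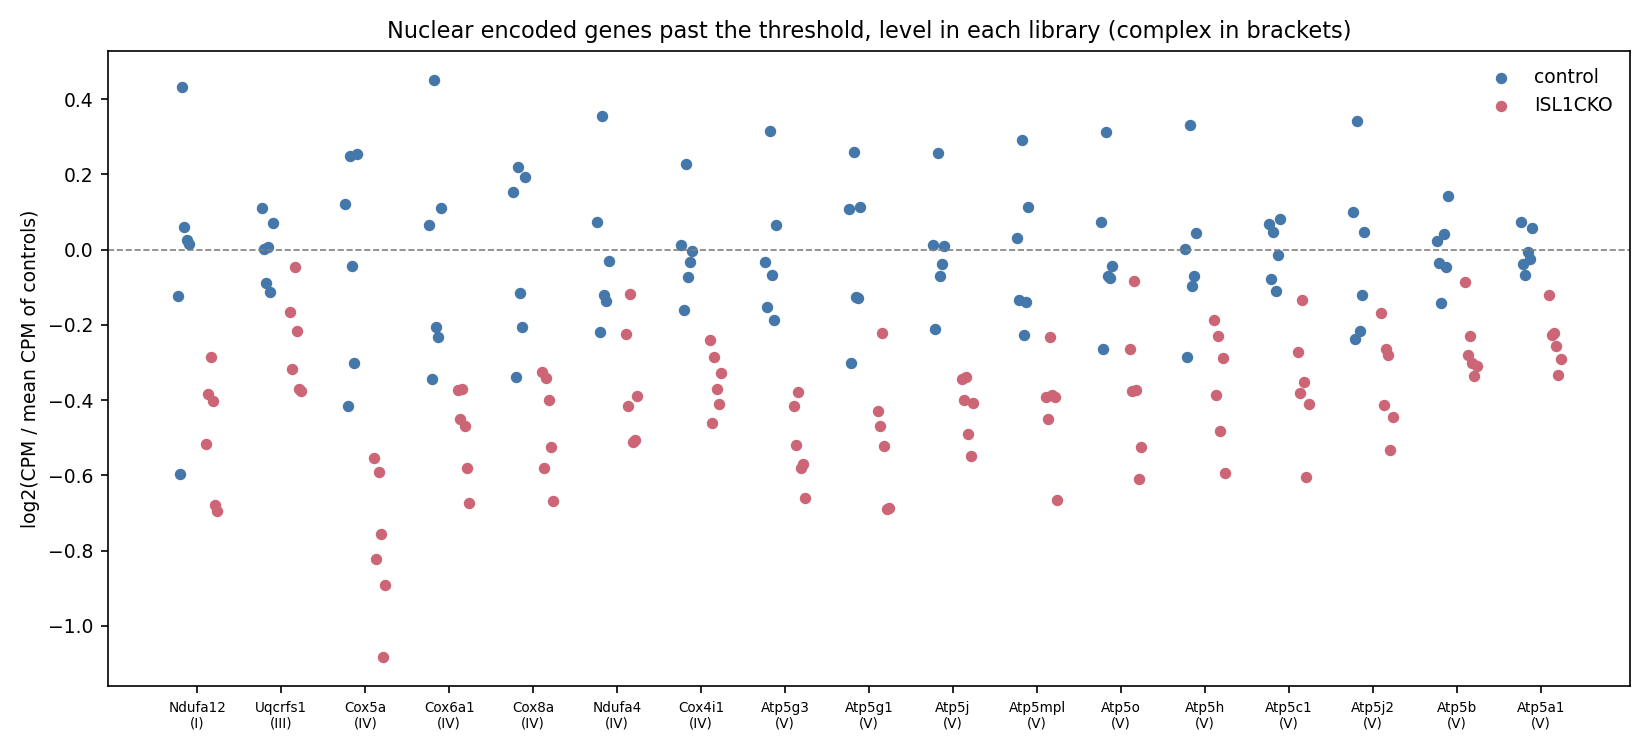
Log2 ratio of each library's CPM to the mean of the 6 controls for the 17 nuclear members that fell, with control and ISL1CKO libraries as separate points. In Cox5a, Cox4i1, Cox6a1, Atp5g3, Atp5j, Atp5mpl, Atp5c1 and Atp5a1 all ISL1CKO points lie below all control points.

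The called nuclear members had more counts, which are not corrected for length here, with a median of 8.41 on the scale of mean log2 CPM against 7.07 for the 69 that did not pass. The median SE was 0.10 for the called and 0.11 for the other members. Among the 78 members whose mean log2 CPM was 6 or more, 93.6% had a fitted value below 0, at a median of -0.27. Among the 3730 other genes above that level, 46.9% did, at a median of 0.02. Both this level and the following gene sets were chosen after the data were seen. Cytosolic ribosomal protein genes, another large set, had a median of -0.20 with 85 of 95 below 0. Of the 95, 10 fell and 1 rose, beside 5.19% and 5.01% of all genes tested. Proteasome genes had a median of -0.09, with 25 of 36 below 0, and vacuolar ATPase genes -0.01, with 9 of 16 below 0. A test of the members against these sets was not made.

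**Figure D5:**
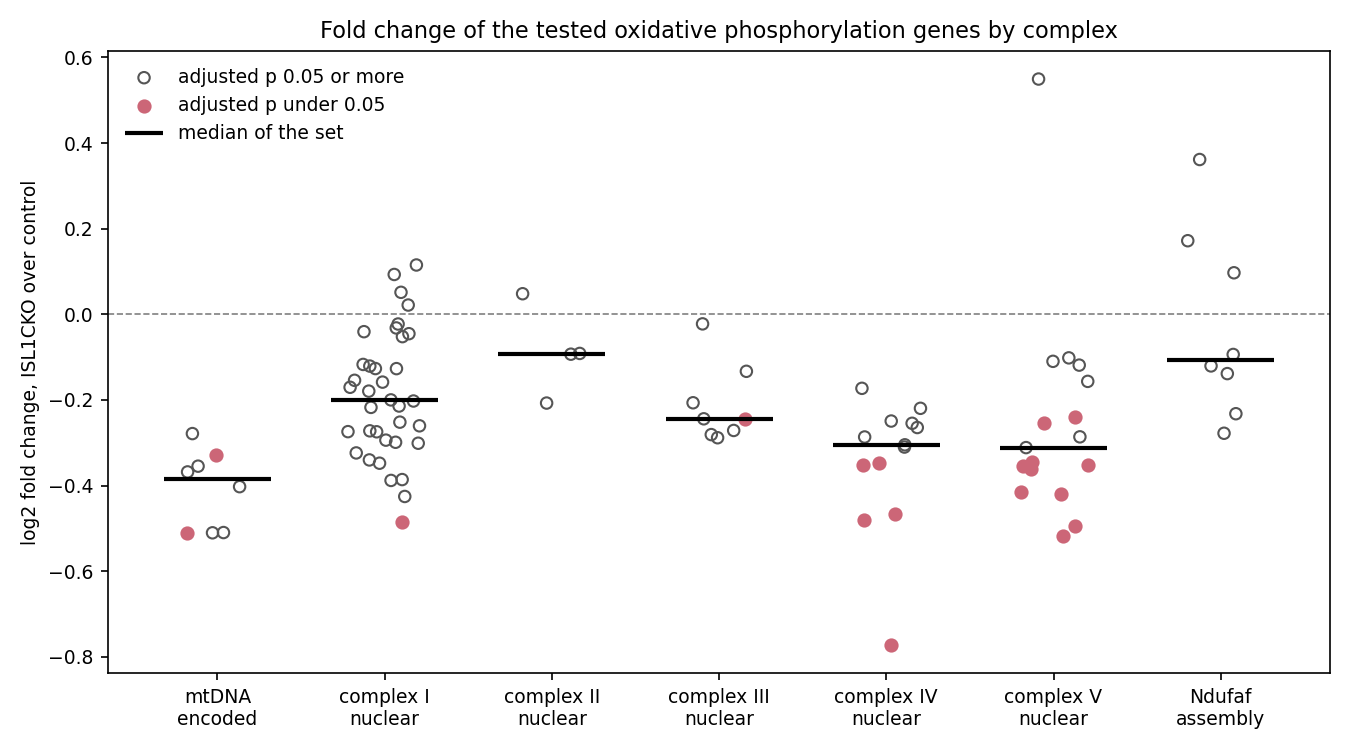
Log2 fold change, ISL1CKO against control, of the 94 members tested, grouped by genome and complex, with genes past the threshold marked and the group medians as bars. Medians lie between -0.31 and -0.09 for the nuclear groups, and the genes that passed, all of them lower, sit mainly in complexes IV and V.

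Genes that serve oxidative phosphorylation without being subunits were listed by function. Over all genes tested 5.19% fell and 5.01% rose. Of 33 tested genes for transcription and RNA handling in mitochondria 1 fell (3.03%), 0 rose, and the median log2 fold change was 0.09. The one that fell was Hsd17b10, which has a part in mitochondrial tRNA processing, at -0.44 (SE 0.11, edgeR adjusted p = 0.0186). Tfam, which packages and transcribes mitochondrial DNA, had 28.8, 44.0 and 52.9 CPM in controls and 41.1, 53.3 and 56.7 CPM in ISL1CKO libraries. Its groups overlapped, with a log2 fold change of 0.27 (SE 0.15, edgeR adjusted p = 0.321), and Lrpprc, which stabilises mitochondrial mRNAs, had 0.26 (SE 0.13, edgeR adjusted p = 0.271). The ribosomal RNAs mt-Rnr1 and mt-Rnr2 had -0.47 (SE 0.20) and -0.42 (SE 0.15), with edgeR adjusted p = 0.159 and 0.0962. Their summed share of counts was 26.0% lower in ISL1CKO libraries, and 13.7% lower without control 3.

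Genes for the mitochondrial ribosome, which translates the 8 mitochondrial members, had 7 of 77 tested fall and 0 rise, at a median of -0.13. The 7 were 9.09% of the list, beside 5.19% of all genes tested. Mrpl12, a large-subunit protein, had 116, 130 and 143 CPM in controls and 75.6, 95.1 and 101 CPM in ISL1CKO libraries, without overlap, and fell by 0.52 (SE 0.09, edgeR adjusted p = 0.00192). Mrps6 fell by 0.83 (SE 0.17, edgeR adjusted p = 0.00525), also without overlap, and Mrps26 by 0.50 (SE 0.12, edgeR adjusted p = 0.0125). Assembly factors outside the Ndufaf family had 0 of 42 past the threshold in the edgeR test and a median of -0.11. At an unadjusted p under 0.05 there were 3 lower and 2 higher of the 42, where all genes tested had 11.8% and 11.6%.

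Carriers and channels of the inner membrane had 5 of 24 tested fall (20.8%, beside 5.19% of all genes) and 0 rise, at a median of -0.19. Slc25a4, an ADP/ATP carrier that exchanges the product of complex V for cytosolic ADP, had 2240, 2479 and 2663 CPM in controls and 1346, 1601 and 1845 CPM in ISL1CKO libraries. The groups were far apart, and Slc25a4 fell by 0.61 on the log2 scale (SE 0.08, edgeR adjusted p = 8.4e-05). Ckmt1, the mitochondrial creatine kinase, had 154, 217 and 319 CPM against 63.8, 74.6 and 108 CPM. Its groups did not overlap either, and it fell by 1.47 (SE 0.18, edgeR adjusted p = 8.56e-05).

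Of 17 tested regulators of mitochondrial biogenesis 2 fell (11.8%) and 1 rose, at a median of -0.04, where 5.19% and 5.01% of all genes did. Esrrg, an estrogen-related receptor, had 283, 427 and 612 CPM in controls and 120, 190 and 316 CPM in ISL1CKO libraries. Only the highest ISL1CKO library overlapped the controls, and Esrrg fell by 1.09 (SE 0.22, edgeR adjusted p = 0.00486). Myc, which has many targets beside mitochondrial genes, had 69.4, 88.3 and 107 CPM against 8.61, 25.8 and 31.9 CPM and fell by 1.88 (SE 0.24, edgeR adjusted p = 0.000123). Prkaa2, a catalytic subunit of the energy sensor AMPK, rose by 0.49 (SE 0.14, edgeR adjusted p = 0.0420), from 34.7, 46.6 and 58.8 CPM to 59.6, 62.6 and 86.4 CPM. Both of these genes had groups that did not overlap, but Prkaa2 lost the call in 10 of the 12 fits without a library (adjusted p up to 0.103). Nrf1, whose motif is described above, had 0.22 (SE 0.16, edgeR adjusted p = 0.457) and was picked after its values were seen, as were Tfam and Lrpprc.

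Of the pathways that feed the respiratory chain, the tricarboxylic acid cycle had 1 of 19 tested genes fall (5.26%) and 0 rise, at a median of -0.05. It was Ogdh, a subunit of the 2-oxoglutarate dehydrogenase complex, at -0.39 (SE 0.09, edgeR adjusted p = 0.0157). Glycolysis and lactate genes had 1 of 27 fall (3.7%) and 1 rise, at a median of -0.13. Beside both lists, 5.19% of all genes tested fell and 5.01% rose. Gapdh, glyceraldehyde-3-phosphate dehydrogenase, fell by 0.35 (SE 0.10, edgeR adjusted p = 0.0365), a call lost in 8 of the 12 fits without a library (adjusted p up to 0.0847). Gpi1, glucose-6-phosphate isomerase, rose by 0.51 (SE 0.11, edgeR adjusted p = 0.00543).

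Between libraries the nuclear members varied within both groups. The median log2 ratio of the tested nuclear members to the control mean ran from -0.20 in control 2 to 0.24 in control 3, and from -0.33 in ISL1CKO 5 to -0.06 in ISL1CKO 3. Controls 2, 4 and 5, at -0.20, -0.08 and -0.12, lay within the ISL1CKO range. Left out, control 2 raised the number of nuclear members called to 24, and 5 other single libraries lowered it to 11, each by itself. These were ISL1CKO 2, 4 and 5 and controls 1 and 6. The 11 nuclear members called in all 12 such fits were Cox5a, Cox4i1, Cox8a and Cox6a1 of complex IV and Atp5g3, Atp5j, Atp5c1, Atp5g1, Atp5a1, Atp5mpl and Atp5b of complex V. Without ISL1CKO 2, 3 and 5, the libraries with transcripts of both sexes, 5 of 87 nuclear members and 1 mitochondrial member were called. Over all genes tested that fit called 767 of 16222, where the main fit called 1511 of 14813. The medians then were -0.25 over the nuclear and -0.37 over the mitochondrial members, close to the values with all libraries. With covariates for the levels of macrophage and Schwann cell markers, 6 of 86 nuclear members and 1 mitochondrial member were called. Their medians were -0.22 and -0.29, and over all genes tested that fit called 913 of 14813.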

How the data were processed

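RNA-seq was measured in 12 sorted samples, 6 ISL1CKO and 6 control. The authors deposited a table of whole-number counts per Ensembl gene, not normalized. The submitters' processing notes name cutadapt 1.18, Bowtie 1.2.2, STAR 2.7.0c, featureCounts and GRCm38.p6, without roles. Annotation and strand use are not given in the sources used here.

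Symbols came from GENCODE M21 for 25620 of 25674 identifiers. With edgeR 4.0.16 (R 4.3.3), genes were filtered with filterByExpr (minimum count 10), scaled by TMM and fitted by the robust quasi-likelihood test on all 12 libraries without covariates. P-values were adjusted by Benjamini-Hochberg over 14813 genes, with a threshold of 0.05. The SE is the absolute log2 fold change divided by the square root of F. The script was tested on simulated data. Alternatives used DESeq2 1.42.0, limma 3.58.1 (voom), other scalings and filters, covariates and libraries left out.

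Members and lists were chosen with earlier results of these data known. Named genes were all mitochondrial members, every nuclear member past the threshold, the members with the smallest p in each complex, the most abundant, isoform families and up to 3 called genes per related list. Shared stretches are the 75-base stretches of a gene's annotated transcripts that also occur in another gene's. No 2 libraries agreed within sampling noise, the smallest chi-square per degree of freedom being 20.9. Totals of 11895603 to 13857480 counts set the depth.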

Additional observations from a re-analysis of the deposited data

Results flagged for a closer look

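In groups of 6 libraries, 13 of 116 group values held a library whose gap to the nearest other exceeded the 95% critical value of Dixon's test, where chance gives about 1 in 20, or 5.8. Of these, 10 lay in control 3. Its share of counts in the mitochondrial members was 1.10%, and the other 5 controls had 0.792% to 0.887%. Control 3 was the highest control in mt-Nd4 (916.7 CPM), mt-Nd5 (593.4 CPM), mt-Nd6 (222.2 CPM), mt-Nd2 (546.0 CPM) and mt-Co1 (1372 CPM), and in the ribosomal RNAs mt-Rnr2 (4354 CPM) and mt-Rnr1 (1072 CPM). It was the lowest control in Sdhd (167.9 CPM, others 220 to 237 CPM) and Ogdh (151.2 CPM, others 187 to 203 CPM).

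ISL1CKO 3 had the highest Uqcrc1 level of its group (582.0 CPM, others 454 to 489 CPM). ISL1CKO 6 had the lowest Myc level (8.612 CPM, others 23.2 to 31.9 CPM), and control 2 the lowest Mrps26 level (51.78 CPM, others 69.6 to 80.2 CPM).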

How the results depend on the processing

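The medians of both member groups and both shares of counts kept their direction under every alternative run. Each changed by less than the mean SD of the library values within groups, a spread that includes control 3. The mitochondrial median still moved from -0.39 to -0.24 without control 3. The median was -0.44 to -0.24 over the mitochondrial and -0.27 to -0.20 over the nuclear members with a library left out. The number of nuclear members called was 11 to 24 with a library left out, 11 with no low-count filter, 6 with macrophage and Schwann cell covariates and 5 when ISL1CKO 2, 3 and 5, which held transcripts of both sexes, were left out together. Over all genes tested, 1511 of 14813 were called in the main fit and 1376 of 25674 with no low-count filter. The covariates gave 913 of 14813 and the last fit 767 of 16222. Fewer samples entered the last fit, and the causes of the others were not tested. The number of mitochondrial members called was 1 to 3 with a library left out, and 1 with the covariates, when ISL1CKO 2, 3 and 5 were left out together or with a replicate block. It was 1 without ISL1CKO 3, 4, 5 or 6. The block gave 21 nuclear calls, 15 of them among the 17. Deviations of same-numbered libraries correlated at -0.06 to 0.16, and 2 of 6 numbers had their own partner as the best match. Whether same-numbered libraries were collected or handled together cannot be told from these values. DESeq2 called 24 nuclear members, 23 lower and 1 higher. Other scalings gave 17 and 20. Depth limits the 4 members not tested, with at most 20 counts, and mt-Nd3.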
